A study of Mus musculus with 4 samples.

Results

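Double-stranded RNA is a mark of viral infection, and also of transcripts of a cell's own repeats. It is recognized in the cytoplasm by RIG-I (gene Ddx58), MDA5 (Ifih1) and LGP2 (Dhx58), a helicase family in which RIG-I and MDA5 signal and LGP2 modulates them, and in endosomes by the Toll-like receptor Tlr3. RIG-I and MDA5 signal through the mitochondrial adaptor Mavs to the interferon regulatory factors Irf3 and Irf7, which switch on interferon genes, and secreted interferon then acts through a receptor on Stat2 and Irf9, which are parts of the factor ISGF3 on promoters of interferon-stimulated genes. The 9 genes described here (Ddx58, Ifih1, Dhx58, Mavs, Tlr3, Irf3, Irf7, Irf9 and Stat2) were taken by symbol from the 54532 genes of the count table, for their place in this pathway. Each matched 1 gene, and all 9 were among the 13233 genes with a mean of at least 1 CPM (counts per 1000000 of the library, scaled by TMM factors) over the libraries, and each was above 1 CPM in every library.

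The cells were C3H10T1/2, a mouse mesenchymal stem cell (MSC) line, and poly(A) RNA was sequenced in 4 groups of 1 library each. The control library came from cells given a control siRNA for 48 h and no induction, and the siDNMT1 library from cells given the DNMT1 siRNA for as long, which targets the enzyme that maintains DNA methylation. The OB library came from cells given the control siRNA and then osteoblast (OB) induction for 3 days with ascorbic acid at 50 µM, β-glycerophosphate at 10 mM and dexamethasone, and the siDNMT1_OB library from cells given the DNMT1 siRNA and the same induction. All 4 groups had therefore been transfected, and no library of untransfected cells is part of the comparison. No uninduced library was taken 3 days later either. Differences given below for induction thus include the added time in culture and since transfection, which cannot be told apart from it. Each comparison below sets 1 library against another and carries no p-value between conditions, which an additive fit over all 4 libraries, among the alternatives, gives under the assumption that siRNA and induction act independently. Intervals are exact 95% intervals of the counts and cover counting error only, since PCR reads without molecular identifiers are not independent molecules.

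The depth lay between 22296046 counts (OB) and 27367792 (control), and the floor of 3 counts lay between 0.111 and 0.133 CPM. Dnmt1 was at 265 CPM in control and 132 in siDNMT1, then 85.4 in OB and 93.1 in siDNMT1_OB. It was thus lower with its siRNA in untreated cells, by 1.01 on the log2 scale (from 0.95 to 1.07), and not lower in the OB pair, where the log2 fold change was 0.12 (0.04 to 0.21). The fourth library is therefore called the library labelled siDNMT1_OB below, and differences drawn from it carry this limit. Why Dnmt1 was not lower there was not tested. Of 9 mesenchymal markers, 8 or 9 reached 1 CPM in each library, with a summed level of 24646 to 31205 CPM. Of 12 markers of blood, endothelial and epithelial cells, 1 or 2 did, 5 to 7 were at 0 and the summed level was 2.88 CPM in control and 3.16 in siDNMT1, then 4.55 in OB and 3.92 in siDNMT1_OB. That sum was higher in the induced libraries, and its part in the results was not tested.

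Promoters of interferon-stimulated genes often hold an interferon-stimulated response element, bound by ISGF3 and by interferon regulatory factors. Windows from 250 bases before to 50 bases after the start site were taken from RefSeq (GRCm38.p6), which matched 8 of the 9 genes, Irf9 with both of its listed start sites. Dhx58 had no entry. The core of that element, GAAA and again GAAA with 2 bases of any kind between, was found on either strand in 3 of the 8 matched genes (Ddx58, Ifih1 and Stat2), against 3.99% of the 27025 genes in the table (3.44% of its 32851 windows). The letters TTCNNNGAA, the gamma-activated sequence bound by STAT dimers, were in none of the 9 windows, against 8.30% of all windows. A form with 1 base between the repeats, GAAANGAAA, was searched after the sequences had been read and was found in Ddx58 and Stat2, against 3.70% of all genes. A match describes letters in the window and shows no binding. The first pair below is shown because both genes hold these letters upstream and were higher in the OB than in the control library, with the matches in capitals on whichever strand they were read. In Ddx58 (chr4:40239826-40240075, minus strand) they are the GAAANGAAA form at position -60 from the start site. In Stat2 (chr10:128270248-128270497, plus strand) the core at position -222 overlaps the GAAANGAAA form at -216.

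Ddx58: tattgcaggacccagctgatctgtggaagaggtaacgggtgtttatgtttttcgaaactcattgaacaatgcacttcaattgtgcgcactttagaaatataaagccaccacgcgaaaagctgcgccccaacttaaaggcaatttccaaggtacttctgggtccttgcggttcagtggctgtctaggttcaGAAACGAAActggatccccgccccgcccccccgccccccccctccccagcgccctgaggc

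Stat2: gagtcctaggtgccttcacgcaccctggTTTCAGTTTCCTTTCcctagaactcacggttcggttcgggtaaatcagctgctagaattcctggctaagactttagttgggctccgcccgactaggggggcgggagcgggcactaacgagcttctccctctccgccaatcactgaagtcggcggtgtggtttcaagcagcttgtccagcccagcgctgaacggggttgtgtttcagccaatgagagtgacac

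The cores of Ddx58 (chr4:40239804-40239833, minus strand) and Ifih1 (chr2:62646206-62646235, minus strand) lay 3 and 33 bases past the start site, in the transcribed part of the window, and are in capitals in the 30 bases around them.

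Ddx58: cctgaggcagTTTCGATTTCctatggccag

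Ifih1: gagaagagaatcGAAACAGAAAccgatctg

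Irf7 and Irf3, related factors, are shown for contrast because they had the widest and the narrowest range of level among the 4 transcription factors, with a highest level 6.91 and 1.16 times the lowest. Neither holds any of the 3 letter patterns in its upstream sequence, which is chr7:141266425-141266674 on the minus strand for Irf7 and chr7:44997398-44997647 on the plus strand for Irf3.

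Irf7: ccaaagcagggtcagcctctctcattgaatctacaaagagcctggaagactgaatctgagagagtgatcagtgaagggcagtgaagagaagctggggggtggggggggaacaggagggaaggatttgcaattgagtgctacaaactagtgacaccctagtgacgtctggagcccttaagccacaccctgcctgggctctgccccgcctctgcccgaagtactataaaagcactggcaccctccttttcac

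Irf3: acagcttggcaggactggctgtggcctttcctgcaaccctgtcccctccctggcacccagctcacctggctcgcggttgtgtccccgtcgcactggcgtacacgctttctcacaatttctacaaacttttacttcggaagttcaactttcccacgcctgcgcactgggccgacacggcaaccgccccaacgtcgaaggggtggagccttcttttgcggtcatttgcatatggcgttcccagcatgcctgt

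DNMT1 methylates cytosine in CpG, and the windows differed widely in the number of CpG. Stat2 held 22, Mavs 19, Irf3 18, Ddx58 15, Ifih1 14, Tlr3 10 and Irf7 7, and the Irf9 windows held 9 and 1, beside a median of 7 over all windows. The level of Stat2, with the most CpG, ranged 3.24-fold over the 4 libraries, and those of Mavs and Irf3, the next, 1.26-fold and 1.16-fold. Methylation was not analysed here.

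The cytoplasmic sensors were all lowest in control. Ddx58 had 1330 counts in control and 1687 in siDNMT1, then 2691 in OB and 2963 in the library labelled siDNMT1_OB, or 49.0, 65.8, 119 and 111 CPM. It was high in both induced libraries and its 4 intervals did not overlap except between those 2 (115 to 124 and 107 to 115 CPM), which met near 115. The level in OB was 2.42 times that in control (46.4 to 51.7). In Ifih1 the counts were 34, 66, 219 and 284 in the same order, or 1.25, 2.58, 9.68 and 10.6 CPM. Both induced libraries stood above both untreated ones, with intervals that did not overlap across that divide and did overlap between OB (8.44 to 11.1) and the library labelled siDNMT1_OB (9.41 to 11.9). Dhx58 had 44, 88, 301 and 270 counts, or 1.62, 3.43, 13.3 and 10.1 CPM. Its level was highest in OB (11.8 to 14.9), and the interval of the library labelled siDNMT1_OB (8.92 to 11.4) lay below it.

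Tlr3, the endosomal sensor, signals through a separate adaptor, Ticam1. It had 153 counts in control and 197 in siDNMT1, then 375 in OB and 516 in the library labelled siDNMT1_OB, or 5.64, 7.69, 16.6 and 19.3 CPM. The untreated pair of libraries had non-overlapping intervals (4.78 to 6.61 and 6.65 to 8.84), whereas those of the induced pair overlapped, with OB at 14.9 to 18.3 and the lower bound of the other at 17.7.

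The adaptor and the factor that acts first after it moved little. Mavs had 1036, 793, 713 and 812 counts, or 38.2 CPM in control and 31.0 in siDNMT1, then 31.5 in OB and 30.3 in the library labelled siDNMT1_OB. Control was the highest, and the other 3 intervals overlapped. Irf3, which is present before infection and is activated by phosphorylation, had 1105, 897, 849 and 944 counts, or 40.7, 35.0, 37.5 and 35.3 CPM. Its highest level was 1.16 times its lowest, the narrowest range among the 9 genes, and that of Mavs was 1.26 times.

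Irf7 is itself an interferon-stimulated gene, and had 61, 186, 310 and 416 counts, or 2.25 CPM in control and 7.26 in siDNMT1, then 13.7 in OB and 15.5 in the library labelled siDNMT1_OB. The first 3 intervals were apart from each other (1.72 to 2.89, 6.25 to 8.38 and 12.2 to 15.3), and the last 2 overlapped. Among the ISGF3 genes, Irf9 had 491, 1418, 1518 and 2335 counts, or 18.1, 55.3, 67.1 and 87.3 CPM. Stat2 had 1640, 2681, 3473 and 5250 counts, or 60.5, 105, 154 and 196 CPM. For these 2 genes no interval overlapped another, and the order was control, siDNMT1, OB and then the library labelled siDNMT1_OB. That order held for 5 of the 9 genes (Ifih1, Tlr3, Irf7, Irf9 and Stat2), Ddx58 and Dhx58 differed from it only by the highest library, and Mavs and Irf3 were highest in control. How many of all genes tested had that order, or were lowest in control, is not given here.

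**Figure D1:**
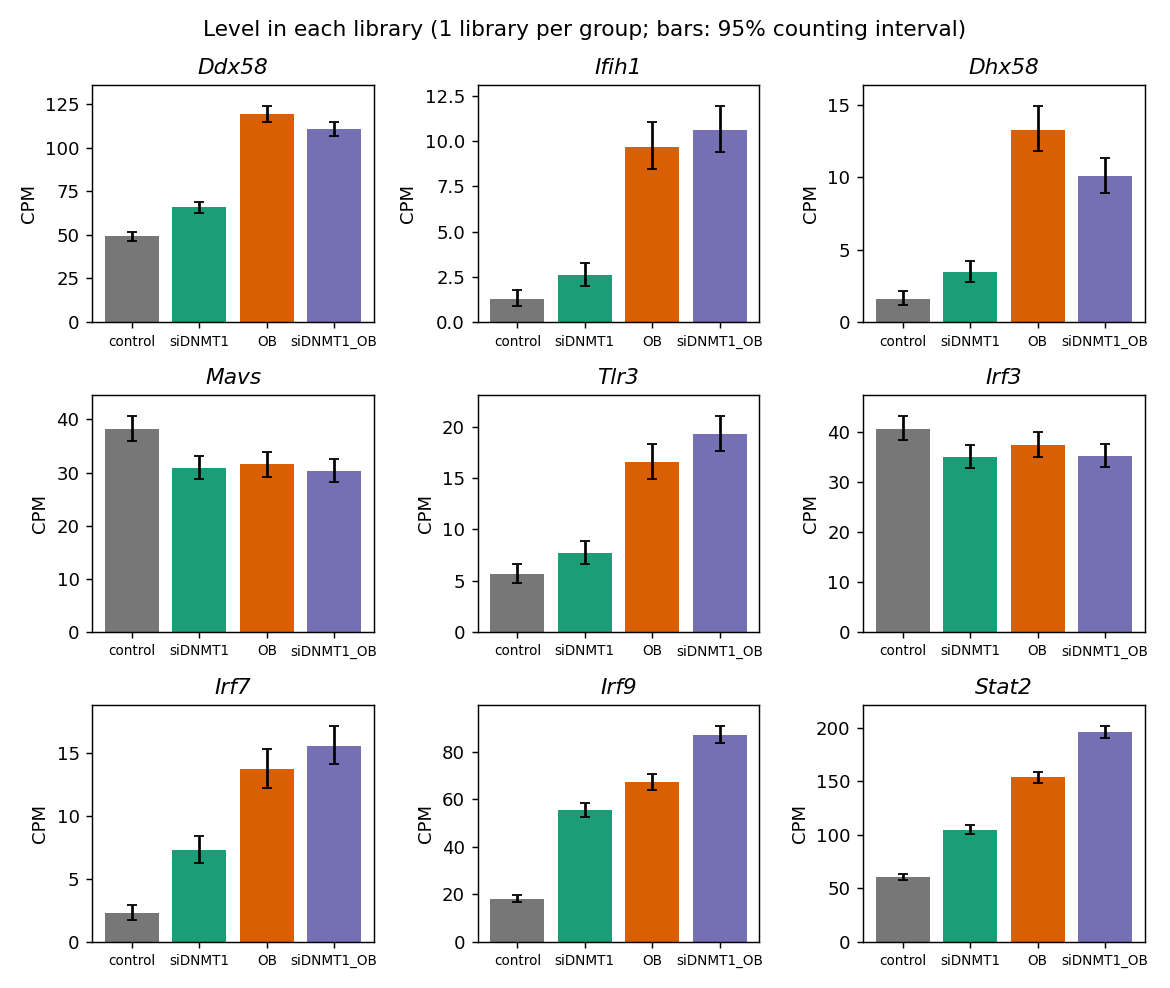
Level of each gene in CPM in the 4 libraries, 1 library per group, with bars from 0 and whiskers for the exact 95% counting interval. Stat2 goes from 60.5 CPM in control to 196 in the library labelled siDNMT1_OB, while Mavs and Irf3 stay between 30.3 and 40.7 CPM.

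Compared per length of exon, the pathway was weighted differently in each library. In control, Irf3 at 11.8 CPM per kilobase and Mavs at 11.4 were the most abundant, with overlapping intervals, followed by Stat2 at 10.2, Ddx58 at 6.96, Irf9 at 3.36, Tlr3 at 1.08, Irf7 at 0.596, Dhx58 at 0.496 and Ifih1 at 0.154. Only 2 of the 8 neighbouring pairs in that order overlapped there, Irf3 with Mavs and Irf7 with Dhx58. In siDNMT1, Stat2 was first at 17.7, and Irf9 at 10.3, Irf3 at 10.2, Ddx58 at 9.34 and Mavs at 9.25 formed a group in which each overlapped the next. Below them Irf7 at 1.92, Tlr3 at 1.48 and Dhx58 at 1.05 overlapped in the same way, and Ifih1 was last at 0.316. In OB the order was Stat2 at 25.9, Ddx58 at 16.9, Irf9 at 12.5, Irf3 at 10.9 and Mavs at 9.43, all apart, and then Dhx58 at 4.07, Irf7 at 3.63 and Tlr3 at 3.18, each overlapping the next, and Ifih1 at 1.19. In the library labelled siDNMT1_OB, Stat2 was at 33.1, Irf9 at 16.2 overlapped Ddx58 at 15.7, Irf3 at 10.2 overlapped Mavs at 9.07, and Irf7 at 4.12, Tlr3 at 3.70 and Dhx58 at 3.08 each overlapped the next, above Ifih1 at 1.30.

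Ratios of these per-length levels between functional partners follow from the same values. Irf7 was at 0.0503 times the level of Irf3 in control and 0.189 times in siDNMT1, then 0.333 times in OB and 0.402 times in the library labelled siDNMT1_OB. Ddx58 exceeded Ifih1 by 45.3 times in control and 29.6 times in siDNMT1, then 14.2 times in OB and 12.1 times in the library labelled siDNMT1_OB. The sensor Ddx58 was at 0.609 times its adaptor Mavs in control, 1.01 times in siDNMT1 and 1.79 and 1.73 times in the induced libraries. Irf9 was at 0.329 times Stat2 in control, 0.582 times in siDNMT1 and 0.481 and 0.489 times in the induced libraries. Among all genes tested, per length, Ifih1 ranged from the 1.87th to the 14.5th percentile, and Stat2 from the 62.8th to the 88.8th.

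**Figure D2:**
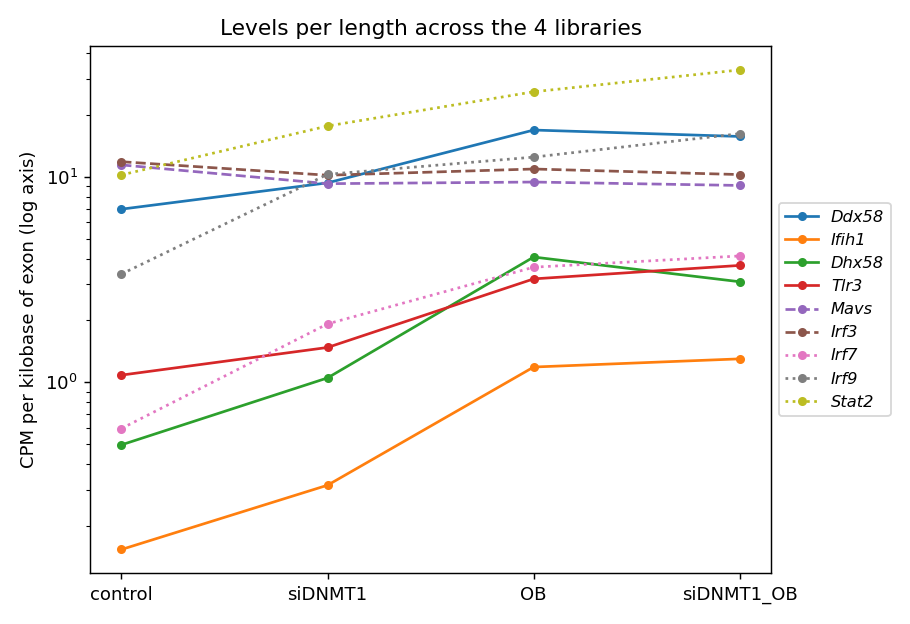
Level per length (CPM per kilobase of exon, log axis) of each gene in the 4 libraries, with lines that join the values of 1 gene and stand for no time course. Stat2 goes from 10.2 to 33.1 and Ifih1 from 0.154 to 1.30, while Irf3 and Mavs stay between 9.07 and 11.8.

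The first comparison asked what the DNMT1 siRNA did to the pathway in untreated cells. In siDNMT1 against control, 3 of the 9 genes (Dhx58, Irf7 and Irf9) were called higher and 0 lower. A call needed a log2 fold change of at least 1 and an adjusted p under 0.05 in an exact binomial test on the pair's reads, which compares libraries and not conditions. The calls depend on the variation assumed between cultures, which the read test leaves out: 1 of the 3 remained (Irf9) in edgeR's exact test with an assumed coefficient of variation of 0.2, 0 remained with 0.4, and an additive edgeR fit over all 4 libraries called 0 of the 9 and 0 of all genes for the siRNA (1148 of all genes at an unadjusted p under 0.05). The additive fit averages the siRNA difference over the untreated and the OB pair, in which Dnmt1 was not lower. It takes the difference between the 2 pairs as error, so it is no test of this comparison alone. The read-test rule called 1.87% of all genes tested higher and 1.33% lower. In bulk RNA, more cells with the transcript and more RNA per cell cannot be told apart. The median log2 fold change of the 9 genes was 0.79, beside -0.001 over all genes tested, and 7 of 9 (77.8%) were positive, beside 49.7% of all.

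Irf7 was 3.16-fold higher in siDNMT1, a log2 fold change of 1.66 (1.27 to 2.13), and Irf9 was 3.05-fold higher, at 1.61 (1.46 to 1.76). Those 2 factors had the largest values among the 9 genes. Dhx58, at 1.05 (0.54 to 1.64), and Ifih1, at 1.00 (0.42 to 1.68), lay on either side of the fold threshold with intervals that reach well across it, so the call of the one and not the other marks no difference between them. Stat2 was 1.73-fold higher, at 0.79 (0.70 to 0.88). Ddx58 and Tlr3 were at 0.42 (0.32 to 0.53) and 0.44 (0.14 to 0.76). Mavs, at -0.30 (-0.44 to -0.17), and Irf3, at -0.22 (-0.35 to -0.09), were the negative ones, with intervals below 0. The interval lay above 0 for the other 7 genes. How many of all genes tested had an interval off 0 is not given here, in this or the later comparisons.

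The second comparison asked the same in induced cells, with the limit given above for Dnmt1 in the library labelled siDNMT1_OB. Of the 9 genes 0 were called in either direction, beside 2.35% of all genes called higher and 1.35% lower. The log2 fold changes ran from -0.40 to 0.38, and their median was 0.13, beside 0.01 over all genes tested. Irf9, at 0.38 (0.29 to 0.47), Stat2, at 0.35 (0.29 to 0.42), and Tlr3, at 0.22 (0.02 to 0.41), had intervals above 0. Dhx58, at -0.40 (-0.64 to -0.16), and Ddx58, at -0.10 (-0.18 to -0.03), had intervals below 0. The intervals of the other 4 held 0, with Irf7 at 0.18 (-0.03 to 0.40) and Ifih1 at 0.13 (-0.13 to 0.39).

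The 2 siRNA comparisons share no library, and their difference was computed for each gene as the value with induction minus the value without it, with a Wald interval of the 4 counts. It was -1.48 (-1.95 to -1.01) for Irf7, -1.45 (-2.02 to -0.87) for Dhx58, and -1.23 (-1.41 to -1.05) for Irf9. Ifih1 was at -0.86 (-1.51 to -0.22), Ddx58 at -0.53 (-0.66 to -0.40) and Stat2 at -0.44 (-0.55 to -0.33). All 6 intervals lay below 0, so the siDNMT1 difference of these genes was lower with induction by more than counting error. How many of all genes tested had such an interval is not given here. For Tlr3, at -0.23 (-0.58 to 0.14), and Irf3, at 0.13 (-0.06 to 0.31), the interval held 0, and Mavs was at 0.25 (0.05 to 0.45). The median over the 9 genes was -0.53, beside 0.005 over all genes tested. The difference was -1 or lower in 3 of the 9 genes, and in 392 of the 13233 tested.

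**Figure D3:**
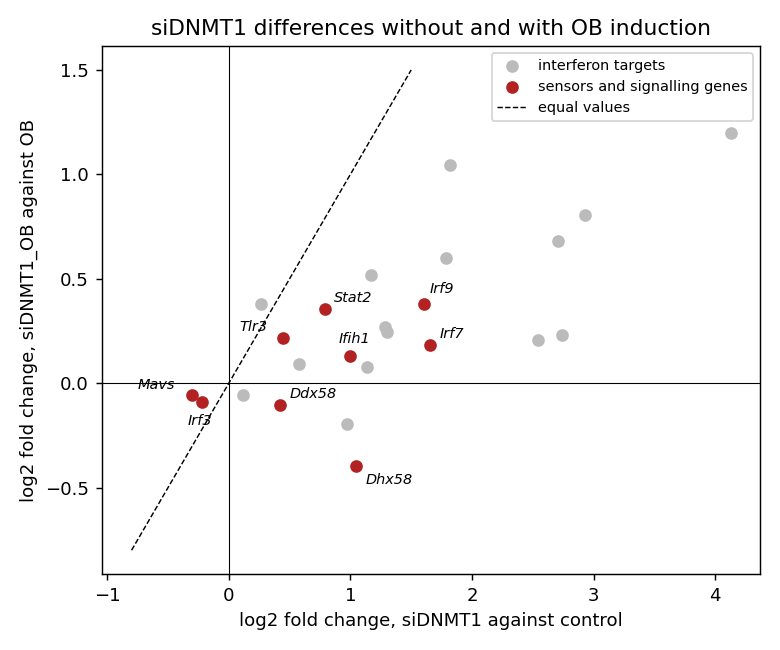
Log2 fold change in siDNMT1 against control (x axis) and in siDNMT1_OB against OB (y axis) for the 9 genes in red and the 15 interferon target genes that passed the filter in grey, with a dashed line where both are equal. Irf7 at 1.66 and 0.18, Irf9 at 1.61 and 0.38 and Dhx58 at 1.05 and -0.40 lie below the line. The target Oas2 had 1 count in control, so its place on the x axis depends on the prior count.

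The OB library against control gave the widest differences, in which induction and the added time in culture cannot be told apart. In OB against control, 7 of the 9 genes were called higher and 0 lower, beside 10.6% of all genes called higher and 7.10% lower. Dhx58 was 7.86-fold higher, at a log2 fold change of 2.98 (2.58 to 3.53), Ifih1 was 7.32-fold higher, at 2.87 (2.42 to 3.52), and Irf7 was 5.92-fold higher, at 2.56 (2.21 to 3.03). These 3 were among the 4 least abundant genes per length in control. Irf9 was at 1.89 (1.74 to 2.04), Tlr3 at 1.54 (1.28 to 1.84), Stat2 at 1.34 (1.26 to 1.43) and Ddx58 at 1.28 (1.18 to 1.38). Mavs, at -0.28 (-0.42 to -0.14), and Irf3, at -0.12 (-0.25 to 0.01), were not called. The median of the 9 genes was 1.54, beside 0.008 over all genes tested. This comparison and that of siDNMT1 against control share the control library, in which 7 of the 9 genes were lowest, so their values are not independent. All 7 calls remained with an assumed coefficient of variation of 0.2 in edgeR's exact test, and 0 with 0.4.

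With the DNMT1 siRNA, in the library labelled siDNMT1_OB against siDNMT1, 4 of the 9 genes were called higher and 0 lower, beside 6.82% of all genes called higher and 2.71% lower. They were Ifih1, 4.03-fold higher at 2.01 (1.65 to 2.45), Dhx58 at 1.53 (1.20 to 1.92), Tlr3 at 1.32 (1.09 to 1.57) and Irf7 at 1.09 (0.85 to 1.36). Stat2, at 0.91 (0.84 to 0.97), Ddx58, at 0.75 (0.66 to 0.84), and Irf9, at 0.66 (0.56 to 0.75), were positive and below the fold threshold, and their intervals lay below 1. With an assumed coefficient of variation of 0.2, 3 of the 4 calls remained, and 0 with 0.4. Mavs was at -0.03 (-0.17 to 0.11) and Irf3 at 0.01 (-0.12 to 0.14). The sign of Irf3 turned to -0.01 with DESeq2 median-of-ratios size factors and to -0.02 with TMM factors over all genes. The median of the 9 genes was 0.91, beside 0.001 over all genes tested. In the 2 by 2 design the difference between the induction effects is the same quantity as that between the siRNA effects given above.

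**Figure D4:**
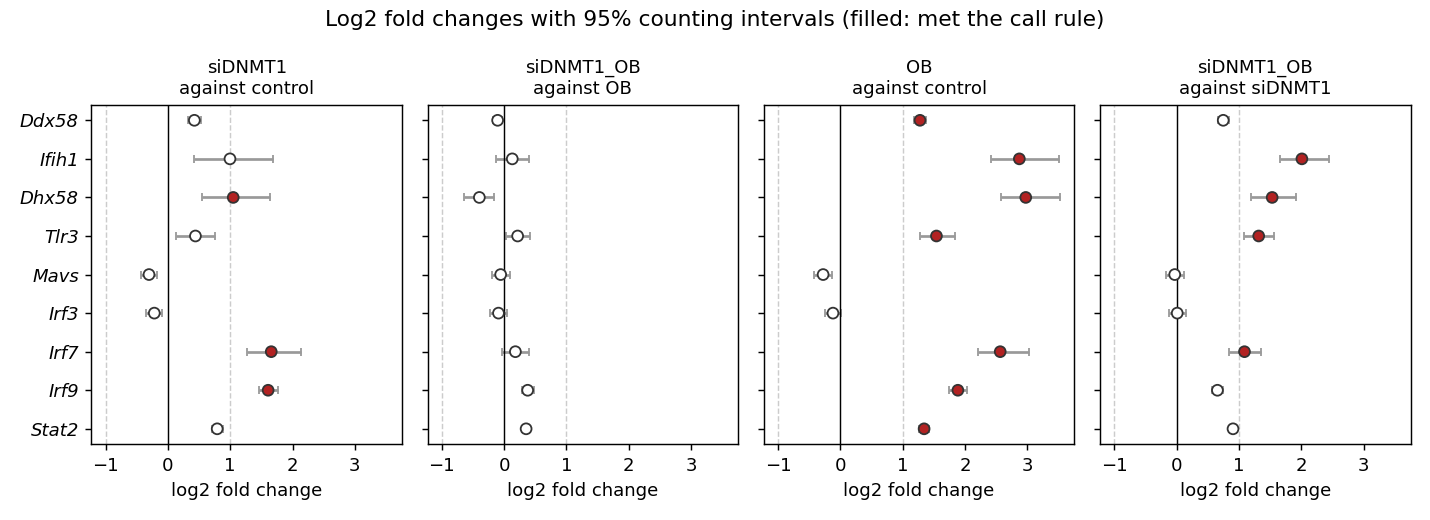
Log2 fold changes of the 9 genes in the 4 comparisons (x axis), with whiskers for 95% counting intervals, dashed lines at -1 and 1, and filled points for genes called. The filled points number 3, 0, 7 and 4 from left to right, and Mavs and Irf3 lie between -0.30 and 0.01 in each panel.

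The other genes of the pathway were followed in lists from general knowledge. Of 22 adaptors and kinases that link sensors to the interferon regulatory factors, 21 were tested. None was called in siDNMT1 against control (median -0.13), beside 1.87% of all genes called higher and 1.33% lower. None was called in the OB pair either (median -0.04), beside 2.35% and 1.35%. Tbk1, the kinase that phosphorylates Irf3, had 2503, 2181, 2141 and 2334 counts in control, siDNMT1, OB and the library labelled siDNMT1_OB, and its log2 fold change was at -0.12 in both siRNA comparisons (-0.20 to -0.03 in each) and 0.04 in both induction comparisons. The related kinase Ikbke had 727, 602, 1177 and 991 counts, at -0.19 (-0.35 to -0.03) and -0.49 (-0.61 to -0.37) with the siRNA, and 0.95 (0.82 to 1.09) and 0.66 (0.51 to 0.80) with induction. Ticam1, the adaptor of Tlr3, had 556, 468, 486 and 509 counts, and its 4 values lay between -0.17 and 0.07 with intervals that held 0. In OB against control, 3 of the 21 were called higher, Tbkbp1, which binds Tbk1, at 2.90 (6 counts in control, 49 in OB, and under 1 CPM in both untreated libraries, so that it passed the filter through the induced ones), Rnf125, a ubiquitin ligase of RIG-I, at 1.68, and Nlrx1, a mitochondrial protein that interacts with Mavs, at 1.25. Traf3, a ubiquitin ligase downstream of Mavs, was the 1 called lower, at -1.10. Over all genes tested, 10.6% were called higher and 7.10% lower in that comparison. Among the 20 genes of the list at 1 CPM or more in control, 2 were called higher and 1 lower. Tbkbp1, Rnf125 and Nlrx1 were also called higher in the library labelled siDNMT1_OB against siDNMT1, at 1.49, 1.35 and 1.00, and 0 genes lower. The shares of all genes were 6.82% and 2.71% there.

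Of 20 other nucleic acid sensors, 11 were tested. Ddx60, a helicase linked to RIG-I signalling, went from 4 counts in control to 66 in siDNMT1, 153 in OB and 209 in the library labelled siDNMT1_OB. It was the 1 called in siDNMT1 against control, at a log2 fold change of 3.57 (2.70 to 6.04), beside 1.87% of all genes called higher. At 0.147 CPM in control it passed the filter through the other libraries, where it was high, and among the 9 genes of the list at 1 CPM or more in control 0 were called. None of the 11 were called in the OB pair, beside 2.35% of all genes called higher and 1.35% lower, and Ddx60 was at 0.20 (-0.10 to 0.52) there. In OB against control, Ddx60 at 4.91 and the interferon-inducible genes Ifi204 at 1.30 and Ifi203 at 1.28 were called higher, and Mb21d1, which encodes the DNA sensor cGAS, lower at -1.62. Among the 9 genes at 1 CPM or more in control 2 were called higher and 1 lower, beside 10.6% and 7.10% of all genes tested. In the library labelled siDNMT1_OB against siDNMT1 the 4 called higher were Ddx60 at 1.57, Ifi204 at 1.22, Ifi203 at 1.21 and the DNA sensor Aim2 at 1.19 (19 and 48 counts), and 0 were called lower. Aim2 was at 0.742 CPM in siDNMT1 and passed the filter through the induced libraries. Without it 3 of 10 were called higher, beside 6.82% of all genes tested. The medians of the 11 genes were 0.09, 0.17, 0.41 and 0.28 in the 4 comparisons.

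Interferon transcripts themselves were hardly counted. Ifnb1, which encodes interferon beta, had 1, 0, 2 and 0 counts, all at or under the floor, and of 10 interferon genes listed 7 were at 0 in all 4 libraries, 1 exceeded 3 counts in any, and the highest count was 4. The exception was Ifne, with 4 counts in OB (0.177 CPM), named after its values were seen. Of 19 ligands, receptors and receptor kinases, 8 were tested and 0 were called in each of the 4 comparisons, with medians of -0.07, -0.08, 0.06 and -0.07. Between 1.33% and 10.6% of all genes tested were called in a given direction of a comparison, so 0 of 8 is not far from those shares. The receptor chain Ifnar1 had 2196, 2380, 2365 and 2416 counts and log2 fold changes of 0.20 (0.11 to 0.28) and -0.21 (-0.29 to -0.13) with the siRNA in untreated and induced cells. Its partner Ifnar2 had 924, 749, 758 and 639 counts and was at -0.22 (-0.36 to -0.08) and -0.49 (-0.64 to -0.34).

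Irf1, an interferon regulatory factor induced by interferon gamma, had 1008, 944, 777 and 921 counts, and its 4 values lay between -0.11 and 0.002 with intervals that held 0. The receptor kinase Jak1 had 5085, 4559, 2897 and 3981 counts, at -0.07 (-0.13 to -0.02) with the siRNA in untreated cells and 0.22 (0.15 to 0.28) in the OB pair, and -0.55 (-0.62 to -0.48) with induction under the control siRNA and -0.26 (-0.32 to -0.20) under the DNMT1 siRNA. Tyk2, its partner, had 1387, 1466, 1159 and 1259 counts, at 0.16 (0.06 to 0.27) and -0.12 (-0.24 to -0.01) with the siRNA, and 0.003 (-0.11 to 0.12) and -0.28 (-0.39 to -0.17) with induction.

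Genes downstream of ISGF3 were followed as 22 interferon targets, of which 15 passed the filter, 6 of them from under 1 CPM in control through the libraries where they were higher. Of the 15, 11 were called higher and 0 lower in siDNMT1 against control, with a median of 1.30. Without those 6 genes, a restriction chosen after seeing the data, 6 of 9 were called higher and 0 lower, with a median of 1.17. Over all genes tested, 1.87% were called higher and 1.33% lower. Ifi44 went from 14 to 263 counts, at 4.13 (3.54 to 5.21), the GTPase gene Mx2 from 22 to 150, at 2.74 (2.20 to 3.57), Oasl2, of the oligoadenylate synthetase family, from 18 to 122, at 2.71 (2.12 to 3.65), and Oas2, of the same family, from 1 to 20, at 2.93 (1.76 to 9.78), a value that rests on 1 count in control. These 4 are among the 6 genes that were under 1 CPM in control. Of the called genes above that level, Ifit1, an RNA-binding effector, went from 74 to 417 counts, at 2.54 (2.22 to 2.95), and Bst2, a membrane tether of budding virus, from 314 to 1054, at 1.82 (1.65 to 2.02), both named after their values were seen. In the OB pair 2 of the 15 were called higher, Ifi44 at 1.20 (0.98 to 1.43) and Bst2 at 1.04 (0.96 to 1.13), and 0 lower, with a median of 0.27. Of all genes tested, 2.35% were called higher in that pair and 1.35% lower. With induction 13 of the 15 were called higher under each siRNA and 0 lower, with medians of 2.64 and 1.33. The shares of all genes called higher were 10.6% and 6.82%. Ifit2, with 1283 counts in control, was the 1 negative target of the 15 in both comparisons. It was at -0.59 (-0.73 to -0.46) and -0.47 (-0.59 to -0.36), and was named after its values were seen. Without the genes under 1 CPM in the uninduced library the targets called higher were 7 of 9 and 11 of 13, with medians of 2.16 and 1.33. Among the 7 that did not pass, named after their values were seen, Mx1 had 37 counts in OB and 7 in the library labelled siDNMT1_OB, at -2.33 (-4.05 to -1.46), Cmpk2 had 16 and 6, at -1.37 (-3.30 to -0.23), and Rsad2 had 7 and 0, so the absence of lower calls in that pair holds for the 15 alone.

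Of 15 genes of feedback and nucleic acid clearance, 13 were tested. Usp18, which blocks the interferon receptor, and Isg15, a ubiquitin-like modifier, were the 2 called higher in siDNMT1 against control, at 2.65 (2.13 to 3.41) and 2.51 (2.08 to 3.10), and 0 were called lower. Usp18 was under the filter level in control, at 0.922 CPM, and passed through the other libraries. Among the 12 genes of the list at 1 CPM or more in control 1 was called higher, beside 1.87% of all genes tested. Isg15 had 40, 225, 255 and 686 counts and was the 1 called in the OB pair, at 1.18 (0.97 to 1.40). In that pair 2.35% of all genes were called higher. In OB against control, Usp18 at 3.04, Isg15 at 2.87 and Samhd1, which degrades nucleotides, at 1.27 were called higher. Rnaseh2c, an RNase H2 subunit, at -1.54 and Socs1, an inhibitor of Janus kinases, at -1.02 were called lower. At 1 CPM or more in control, 2 of 12 were called higher and 2 lower, beside 10.6% and 7.10% of all genes tested. In the library labelled siDNMT1_OB against siDNMT1, Isg15 at 1.54 and Usp18 at 1.31 were called higher and Rnaseh2c at -1.22 lower. The shares of all genes were 6.82% and 2.71% there. The medians of the 13 genes were -0.14, 0.09, -0.31 and -0.27.

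The genes whose profile over the 4 libraries was nearest to each of the 9 were found among 11439 protein-coding genes, by the Euclidean distance of log2 CPM centred on each gene's mean. With 4 libraries such a likeness is a description. For Irf7 the 3 nearest were Tmem44 (distance 0.164), Igtp (0.170) and Apol6 (0.181), for Irf9 they were Trim34a (0.169), Matn3 (0.245) and Hfe (0.259), and for Dhx58 they were Gpm6b (0.177), Ifi27l2a (0.241) and Negr1 (0.268). Ifih1 ran closest to the integrin Itga1 (0.084), the collagen Col11a1 (0.101) and Psd4 (0.159), and Tlr3 to the neuronal microtubule gene Map2 (0.024), Ano3 (0.061) and Ddit4l (0.066). Ddx58 was nearest to Mfsd13a (0.044), Antxr1 (0.050) and Fam43a (0.057), and Stat2 to Pcdhb18 (0.099), Rarres1 (0.112) and Hectd2 (0.116). Mavs and Irf3 ranged over less than 1 on the log2 scale and were not matched.

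The genes are placed on GRCm38 as in the count table, and several share exon bases with a neighbour. Ddx58 (ENSMUSG00000040296) is at chr4:40203773-40239828 on the minus strand, Ifih1 (ENSMUSG00000026896) at chr2:62595798-62646255 on the minus strand, Mavs (ENSMUSG00000037523) at chr2:131234063-131248025 on the plus strand and Stat2 (ENSMUSG00000040033) at chr10:128270559-128292849 on the plus strand, and these 4 share no exon base with another gene. Dhx58 (ENSMUSG00000017830, chr11:100694884-100704271, minus strand) shares 141 exon bases with Dhx58os on the opposite strand, which had 0, 1, 4 and 5 counts. Tlr3 (ENSMUSG00000031639, chr8:45395665-45411080, minus strand) shares 381 with Gm45542 on the opposite strand, which was at 0 in all 4 libraries. Irf3 (ENSMUSG00000003184, chr7:44997648-45002848, plus strand) shares 88 with Bcl2l12 on the opposite strand, at 223 to 255 counts. Irf7 (ENSMUSG00000025498, chr7:141262706-141266481, minus strand) shares 45 with Phrf1 on the opposite strand, which had 2355, 2143, 1419 and 1750 counts. Irf9 (ENSMUSG00000002325, chr14:55603571-55610030, plus strand) shares 123 with Rnf31 on the same strand, which had 903, 1052, 1046 and 1223 counts. The use of strand in the counting is not given in the sources used here, so reads in these shared bases are uncertain, and their part in the values was not tested.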

How the data were processed

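The authors deposited a table of raw counts per gene, in whole numbers and with no normalization, for the 4 libraries. Per the labels and the study's methods, poly(A) RNA was made into TruSeq libraries and sequenced from both ends, and per the submitters' processing notes Trimmomatic, HISAT2 and featureCounts were used with the mm10 build. Versions, strand use and the treatment of multimapping reads are not given in the sources used here. Such choices can move counts of overlapping genes. Of 54409 genes shared with GENCODE M21, 53462 had the same span.

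The counts were scaled with TMM factors from edgeR 4.0.16 under R 4.3.3, taken over genes with a mean of at least 1 CPM, which were the genes tested. Log2 fold changes used a prior count of 2. A gene was called where the fold change was at least 1 in size and an exact 2-sided binomial test on the reads of the pair had a Benjamini-Hochberg adjusted p under 0.05 over all genes tested (scipy 1.17.1, Python 3.11.15). Fold intervals are exact (Clopper-Pearson). The procedure was tested on simulated counts with counting error alone, which leave out variation between cultures. The size threshold is that of the study, which used edgeR.

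The 9 genes and the lists were chosen with earlier results of these data known. Named besides the 9 genes were Dnmt1, up to 4 called genes per list and comparison by size, direct partners, and the 3 nearest profiles. The list of other transcription factors is not reported here. Alternatives were other scalings, filters and prior counts, the fold alone, edgeR with an assumed variation, and an additive edgeR quasi-likelihood fit.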

Additional observations from a re-analysis of the deposited data

Results flagged for a closer look

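The siDNMT1 difference had opposite signs without and with OB induction in 2 of the 9 genes, both of them among the 3 cytoplasmic sensors. The share of all genes tested with such a turn is not given here. Ddx58 had a log2 fold change of 0.425 in siDNMT1 against control and of -0.104 in siDNMT1_OB against OB. Dhx58 had 1.048 and -0.397 in the same comparisons. Among the receptor and its kinases, Ifnar1 had 0.198 and -0.212, Jak1 -0.075 and 0.216, and Tyk2 0.162 and -0.123. In each of the 10 values the counting interval did not hold 0. Beyond counting error the difference was not tested, because each group had 1 library, and the library labelled siDNMT1_OB had no less Dnmt1 than the OB library.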

How the results depend on the processing

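The numbers of calls among the 9 genes stayed within 1.5 times, and their median log2 fold changes kept their sign, under every scaling, filter and prior count tried, TMM factors over all genes included, an alternative added after seeing the data. For single genes Ifih1 in siDNMT1 against control passed the fold threshold at 1.01 with total count scaling, 1.00 with upper quartile scaling and 1.03 with a prior count of 0.5. The read test sees no variation between cultures, and the calls depended on the variation assumed. With an assumed coefficient of variation of 0.2 in edgeR's exact test, the genes called higher in siDNMT1 against control went from 3 to 1 (Irf9), and with 0.4 to 0, while the calls over all genes went from 247 higher and 176 lower to 35 and 23, and then to 0 and 3. With 0.2 all 7 calls among the 9 genes remained in OB against control (1007 and 692 over all genes) and 3 of 4, without Irf7, in siDNMT1_OB against siDNMT1 (500 and 105). With 0.4 the members called higher also went from 7 to 0 in OB against control (146 and 19 over all genes) and from 4 to 0 in siDNMT1_OB against siDNMT1 (65 and 2). In the OB pair the calls over all genes were 35 and 20 with 0.2 and 0 and 0 with 0.4. Filters also moved those counts: without one they were 325 and 268 in siDNMT1 against control, 383 and 344 in the OB pair, 2105 and 1127 in OB against control and 1257 and 499 in siDNMT1_OB against siDNMT1, and with a mean of at least 5 CPM they were 108 and 91, 185 and 72, 823 and 729, and 508 and 229.

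An additive edgeR quasi-likelihood fit, which takes the non-additive part of the 4 libraries as error and has 1 residual degree of freedom, called 7 of the 9 genes for OB induction (adjusted p from 0.0113 to 0.0422) and 2786 of all 13233 tested, against 4 of the 9 called under both siRNAs in the read test. For the DNMT1 siRNA it called 0 of the 9 and 0 of all genes (lowest adjusted p 0.369 among the 9), with 2 (Stat2 and Irf9) and 1148 at an unadjusted p under 0.05. Ifih1, Dhx58 and Irf7 rest on 34, 44 and 61 counts in control, which limits their precision.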
